A study of Homo sapiens with 16 samples.

Results

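The 9 h arrays of this series compared U937 cells given UNBS1450 with control cells of the same time point. They are the 4 arrays of 16 whose labels give 9 h, and no measured value entered that choice. U937 is a human histiocytic lymphoma line with monocyte-like features, which some label fields spell U397. On each array RNA from cells exposed to UNBS1450 at 20 nM competed with RNA from untreated control cells, each labelled with its own dye. The treated side was Cy5 on the first pair of replicates (1 and 2) and Cy3 on replicates 3 and 4. The other arrays are 4 each at 3 h and 6 h, with the same treatment and dose, and 4 at 0 h, for which the methods give no treatment although the labels name the agent. The 4 arrays of each time are biological replicates by their labels, which do not say which cultures or slides belong together.

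UNBS1450 is a hemi-synthetic cardenolide, a cardiac glycoside. Such compounds bind the sodium pump, the membrane ATPase that exports sodium and imports potassium, and block it. Cells then gain sodium and lose potassium, and potassium is needed by ribosomes, so translation is among the processes known to respond to these compounds.

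All values below are log2 ratios of treated over control RNA, so that a positive value means more RNA in treated cells. The ratios give no level, so the identity of the line could not be checked by the presence of its markers, and a difference cannot be split into more RNA per cell and a change in the cells present. Of 21 measured erythroid, 19 T cell, 12 B cell and 27 neuronal marker genes none was called at 9 h in either fit of limma, and 4, 4, 2 and 3 of them had an unadjusted p under 0.05 with the dye coefficient, against 5019 of all 17329 genes. Of 36 myeloid surface and lineage markers 1 was called higher and 2 lower.

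Calling a gene required an absolute log2 change of 0.38 or more, a 1.3-fold difference, together with a Benjamini-Hochberg adjusted p under 0.05 from limma. The test set the mean of the 4 turned ratios against 0, in a model of all 16 arrays with a coefficient per time point. It was run without and with a coefficient for the dye preference of each gene. Because 2 arrays of 9 h lay in each orientation, the dye coefficient left every log2 fold change as it was and altered only its standard error, whose median over 28970 spots was 0.0659 with and 0.078 without the coefficient.

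With the dye coefficient 511 of 17329 genes were called at 9 h, or 2.95% of the genes tested, 229 of them higher (1.32%) and 282 lower (1.63%) in treated cells. Without it 130 genes were called, or 0.75%, with 65 higher (0.375%) and 65 lower (0.375%), and all 130 were among the 511. The 381 genes called with the dye coefficient alone had a median absolute dye coefficient of 0.12, against 0.044 in the genes called by both fits, and their changes were of similar size, with median absolute values of 0.49 and 0.49. On the 0 h arrays neither fit called a gene. Unadjusted p under 0.05 with the same fold limit held in 876 genes at 9 h with the dye coefficient, against 116 at 0 h. Without it the numbers were 855 and 100. These counts rest on a chosen spot per gene, which may favour 9 h, so 0 h is not an even background for them. With the spots of each gene averaged, the 9 h counts were 524 with and 508 without the dye coefficient. The median absolute log2 change was then 0.068 at 9 h and 0.050 at 0 h.

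**Figure D1:**
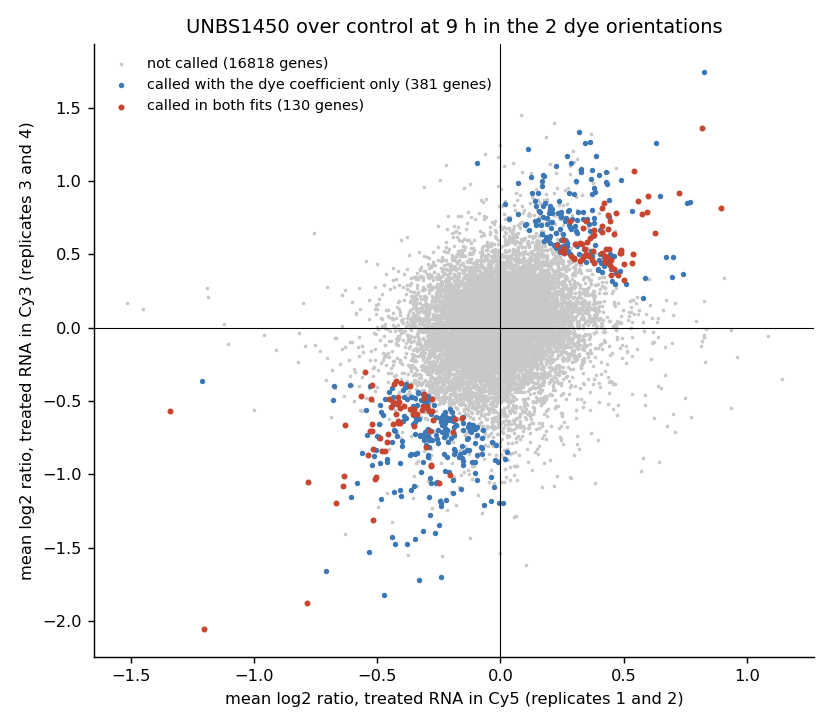
Each point is 1 of 17329 genes, with the mean log2 ratio of UNBS1450 over control in replicates 1 and 2 on the x axis and in replicates 3 and 4 on the y axis. The 130 genes called in both fits lie near the diagonal, and the 381 called with the dye coefficient alone lie on either side of it, mostly in the same 2 quadrants.

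Most changes were small. Of the 511 called genes, 271 had an absolute log2 change under 0.5, 232 lay between 0.5 and 1, and 8 reached 1. A further 901 genes passed the adjusted p with the dye coefficient but not the fold limit, 471 of them higher and 430 lower, with a median absolute change of 0.27, so that 1412 genes or 8.15% passed on p alone, 4.04% higher and 4.11% lower. Without the dye coefficient 1.23% passed on p alone. In 472 of the 511 called genes all 4 arrays had one sign, which a call made on these same arrays favours. Over all genes the share was 24.7% at 9 h and 13.6% at 0 h, where 6.14% were higher and 7.42% lower. These shares also rest on the chosen spots. The 511 hold 472 protein-coding genes and 25 long non-coding RNA genes.

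The 4 arrays did not contribute evenly. Replicate 4 had the widest spread over spots, with an SD of 0.42 against 0.23 to 0.28 on the other arrays of 9 h. It gave the most extreme value in 443 of the 511 called genes. Among genes called higher the median ratio was 0.42, 0.24, 0.33 and 0.98 on replicates 1, 2, 3 and 4, and among genes called lower it was -0.36, -0.25, -0.44 and -0.97. The dye-balanced mean of the other 3 arrays, in which both orientations weigh alike, had the same sign in all 229 higher and all 282 lower genes, but reached the fold limit in 59 and 136 of them. The same sign is favoured by the selection, since these 3 arrays entered the calls.

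**Figure D2:**
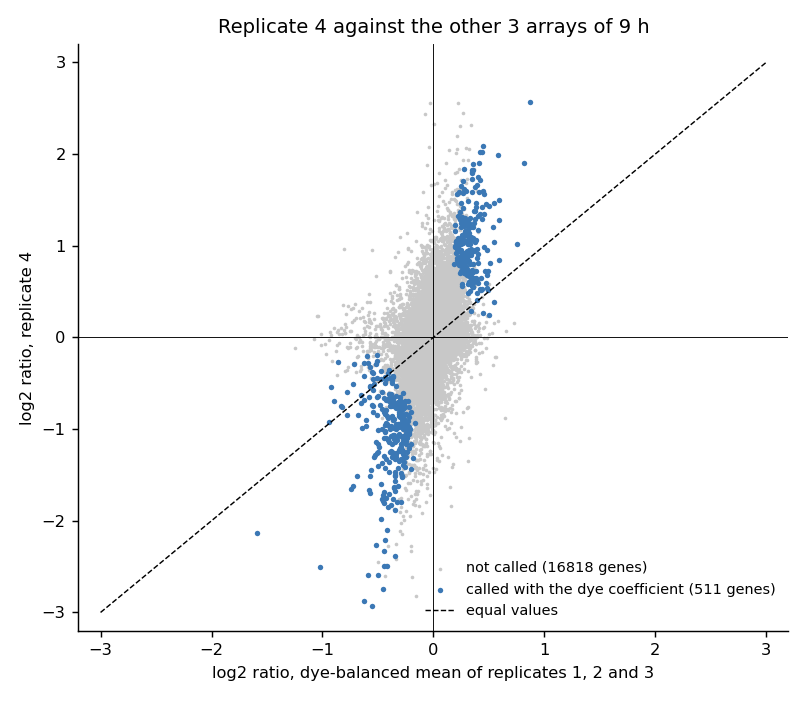
Each point is a gene, with the dye-balanced mean log2 ratio of replicates 1, 2 and 3 on the x axis, that of replicate 4 on the y axis, and the dashed line marking equal values. Of the 511 called genes 477 lie farther from 0 on replicate 4 than in the mean of the other 3 arrays. Of them 0 have opposite signs on the 2 axes, but all 4 arrays entered the call.

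The number of calls turned on single arrays. With the dye coefficient 7 genes were called without replicate 4 and 3 without replicate 1, whereas 816 were called without replicate 2 and 878 without replicate 3. Without the dye coefficient the numbers were 0 without replicate 1, 437 without replicate 2, 0 without replicate 3 and 0 without replicate 4. EIF5 and LYRM9, a gene of the LYR motif family, were called under each of the 4 omissions with the dye coefficient, with log2 changes of -1.57 and -0.42 without replicate 4 (limma, adjusted p = 0.0104 for both). The second spot of LYRM9 averaged -0.07, and the mean of its spots, -0.27, was under the fold limit. The other 5 genes called without replicate 4 were ADGRE5, HIPK3 and RASSF3, which were higher, and NKAPP1 and ZFAND2A, which were lower. SSC4D was the only further gene called without replicate 1, at -0.72 (limma, adjusted p = 0.01485). ZFAND2A was not among the 511, and replicate 4 read 0.20 against -0.05, -0.18 and -0.74 on replicates 1 to 3.

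**Figure D3:**
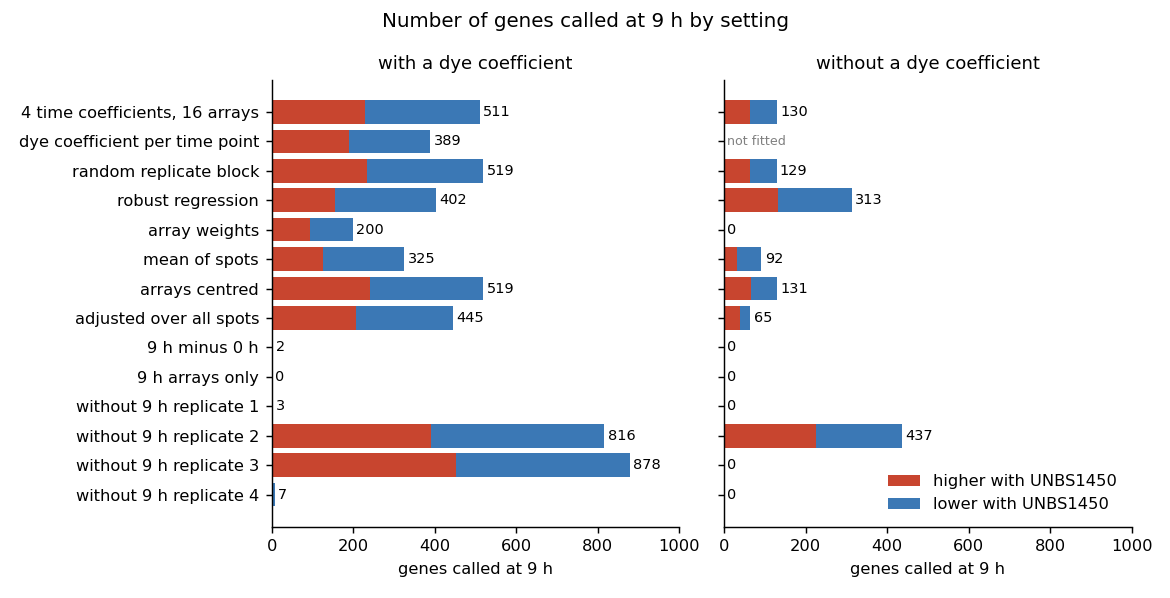
Bars give the number of genes called at 9 h, higher in red and lower in blue, with the dye coefficient on the left and without it on the right, 1 row per setting. The uppermost row holds the 511 and 130 genes described here, and the counts fall to 7 and 0 without replicate 4.

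Among the factors of translation initiation EIF5 stood out. EIF5, which triggers GTP hydrolysis once the start codon is met, had values of -1.36, -1.05, -1.97 and -2.14 on replicates 1 to 4. All 4 arrays were low by at least 1 log2 unit, and the mean was -1.63 with a standard error of 0.17 (limma, adjusted p = 0.00167 with and 0.0307 without the dye coefficient). Its 4 spots lay between -1.65 and -1.40. EIF1B, a paralog of the start codon stringency factor EIF1, had values of 1.14, 0.64, 0.61 and 1.02 and was called higher in both fits. Of 40 initiation factors measured, no other was called. EIF3A, a scaffold subunit of eIF3, and EIF5B, the GTPase of subunit joining, passed on p alone with the dye coefficient, at -0.34 and -0.35, and like the other genes given here as passing on p alone were named after their values were seen. The median of the list was -0.07, against 0.002 over all genes. MCTS1, which acts in re-initiation and ribosome recycling, was called lower with the dye coefficient, at -0.36, -0.12, -0.39 and -0.94, but 1 of its 3 spots averaged 0.09.

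Genes of ribosome production lay below 0. Of 53 measured ribosome biogenesis factors 46 had a negative value and the median was -0.23. The array medians were -0.16, -0.10, -0.09 and -0.46 at 9 h, against -0.16, -0.12, 0.01 and 0.05 on replicates 1 to 4 of 0 h, and the list median at 9 h was -0.10 without replicate 4. All 4 arrays of 9 h were negative in 23 of the 53 and positive in 0, against 12.9% and 11.8% of all genes. Of the 53, 4 or 7.5% were called, all lower and with the dye coefficient only, against 1.63% of all genes called lower. On p alone 6 passed, all lower, against 4.11% of all genes. All lists were written with earlier results of these data known. RIOK2, a kinase of late small subunit maturation, had values of -0.13, -0.29, -1.01 and -0.96, with its 11 spots between -0.60 and -0.34. RIOK1, its relative, had values of -0.57, -0.20, -0.43 and -0.38. NCL, the nucleolar protein nucleolin, had values of -1.16, -0.20, -0.40 and -0.39, and its other spot gave -0.01. UTP14A, of the small subunit processome, averaged -0.49.

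MPHOSPH10, another processome protein that was not on the list, was among the 8 genes with the smallest p for a fall, at -0.37, -0.15, -0.57 and -0.94 (limma, adjusted p = 0.0124 with and 0.067 without the dye coefficient). Further nucleolar proteins outside the list, chosen after their values were seen, were NOL8 at -0.86, PAK1IP1 at -0.73, SDAD1 at -0.57 and ESF1 at -0.41, each called lower with the dye coefficient. PAK1IP1 was read by 10 spots, which lay between -0.73 and -0.50.

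The polymerase that makes ribosomal RNA gave both directions. POLR1E and POLR1G, subunits of RNA polymerase I, were called lower at -0.60 and -0.71, and POLR3B, the second largest subunit of RNA polymerase III, at -0.41. TAF1A, a subunit of the promoter selectivity factor of RNA polymerase I, was called higher in both fits, at 0.48, 0.22, 0.37 and 0.80. The median of the 30 genes of both polymerases was -0.001. Of 75 cytosolic ribosomal protein genes none was called in either fit of limma and 10 had an unadjusted p under 0.05 with the dye coefficient, and their array medians were -0.15, 0.18, -0.07 and -0.09, with replicate 2 on the other side of 0. Of 76 mitochondrial ribosomal protein genes MRPS31 alone was called, at -0.50. Of 6 small nucleolar and Cajal body RNAs SCARNA17 and SNORD22 were called lower, at -0.92 and -0.53. SCARNA17 read -0.72, -0.31, -0.97 and -1.65 and was called in both fits.

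Targets of ATF4, which drives gene expression in amino acid shortage and in the integrated stress response, lay below 0 to a like extent on the 4 arrays. Of 29 measured targets 23 had a negative value, 6 were called lower and 0 higher, and 5 of the 6 also without the dye coefficient. The 6 were 20.7% of the list, against 1.63% of all genes called lower. Without the dye coefficient 0.375% of all genes were called lower. The array medians were -0.22, -0.23, -0.18 and -0.30 at 9 h, against 0.003, 0.006, 0.004 and 0.03 over the same genes at 0 h, and the median without replicate 4 was -0.21. With p alone 12 of the 29 passed, all lower, against 4.11% of all genes.

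DDIT4, an inhibitor of mTORC1 signalling, had values of -0.88, -0.69, -1.25 and -2.50 and was called in both fits, though its second spot averaged -0.01. ALDH1L2, the mitochondrial 10-formyltetrahydrofolate dehydrogenase, had values of -0.52, -0.36, -0.49 and -0.60. Its 4 arrays lay within a narrow range and it had one of the smallest p of all genes (limma, adjusted p = 0.0124 with and 0.0307 without the dye coefficient). SLC7A5, the light chain of the large neutral amino acid transporter, had values of -0.66, -0.28, -1.09 and -0.59. ATF3, a stress-induced repressor, read -0.24, -0.35, -0.96 and -0.42 and was called with the dye coefficient only. TRIB3, a pseudokinase, and CEBPB averaged -0.44 and -0.40. PSAT1 of serine synthesis, ASNS, the asparagine synthetase, and VEGFA passed on p alone, at -0.35, -0.27 and -0.29.

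MAT2A, which makes S-adenosylmethionine, was lower at -0.72, -0.34, -0.47 and -2.59. All 4 arrays were low, but the mean of -1.03 rested largely on replicate 4, and the dye-balanced mean of the other 3 was -0.50. Of 24 serine, glycine and folate enzymes 20 had a negative value and MAT2A and ALDH1L2 were called. Of 19 cytoplasmic tRNA synthetases 15 had a negative value and none was called, with 9 at an unadjusted p under 0.05 in limma, and their median was -0.16 at 9 h and -0.17 at 0 h.

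Chaperones of the cytosol were lower in part. Of 26 measured heat shock chaperones and factors 19 had a negative value. The calls were 3 or 11.5%, all lower, against 1.63% of all genes called lower. The array medians were -0.09, 0.01, -0.13 and -0.25 at 9 h, against -0.07, -0.08, -0.06 and 0.02 at 0 h. The list median was -0.21 at 9 h and -0.08 for 9 h minus 0 h. HSP90AA1, the inducible HSP90, had values of -1.04, -0.22, -0.83 and -0.50 and was called in both fits. Its 13 spots lay between -0.68 and -0.07. HSPA1A, the inducible HSP70, had values of -0.46, -0.28, -0.85 and -0.90. Its probes may also read the near-identical HSPA1B, which was not checked. DNAJB1, an HSP70 cochaperone, had values of -0.45, -0.03, -0.68 and -1.76. Replicate 2 was close to 0 for DNAJB1 and the smallest change for all 3 genes. Of 14 subunits of the TRiC chaperonin and prefoldin none was called by limma, and 2 had an unadjusted p under 0.05.

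In the endoplasmic reticulum HERPUD1, a component of the degradation machinery, was called lower in both fits, at -0.39, -0.67, -0.78 and -0.63. PPP1R15A, the regulatory subunit that directs dephosphorylation of eIF2 alpha, was called higher with the dye coefficient only, at 0.20, 0.12, 0.34 and 1.24. CREB3L2, a membrane-bound transcription factor, averaged 0.50. The median of the 32 genes of the unfolded protein response was 0.05 and these 3 were the only ones called.

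TXNIP, an inhibitor of thioredoxin and of glucose import, had the highest mean of the 511 called genes, at 1.12, 0.53, 0.92 and 2.57. Its mean of 1.29 had a standard error of 0.29 (limma, adjusted p = 0.0254 with and 0.0516 without the dye coefficient), and the dye-balanced mean of replicates 1, 2 and 3 was 0.87. TXNIP is a target of the glucose-sensing factor MondoA. MYC, the growth-promoting transcription factor, had values of -0.66, -0.76, -0.39 and -2.93. All 4 arrays were low and replicate 4 lay far below the rest, so that the mean was -1.19 with all and -0.55 in the dye-balanced mean of the other 3. Of the 12 spots for MYC the highest averaged 0.02. FLCN, the folliculin of nutrient signalling, averaged 0.51.

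Promoter windows are shown for 4 called genes that hold the letters of an element known for MondoA, ATF4 or E2F. HERPUD1 stands on the unfolded protein response list and not among the ATF4 targets. They come from RefSeq (GRCh38.p14), run 5' to 3' on the gene's strand over 300 bases around the gene's start, and matched 13676 of the 17329 genes. Capitals mark the element, searched on both strands.
TXNIP, chr1:145996530-145996829, minus strand: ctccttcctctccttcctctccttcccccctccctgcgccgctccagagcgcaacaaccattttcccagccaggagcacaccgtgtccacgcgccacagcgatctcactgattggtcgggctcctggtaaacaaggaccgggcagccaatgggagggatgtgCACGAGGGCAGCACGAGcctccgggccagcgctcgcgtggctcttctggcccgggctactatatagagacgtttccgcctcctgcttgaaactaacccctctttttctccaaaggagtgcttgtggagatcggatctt
HERPUD1, chr16:56931892-56932191, plus strand: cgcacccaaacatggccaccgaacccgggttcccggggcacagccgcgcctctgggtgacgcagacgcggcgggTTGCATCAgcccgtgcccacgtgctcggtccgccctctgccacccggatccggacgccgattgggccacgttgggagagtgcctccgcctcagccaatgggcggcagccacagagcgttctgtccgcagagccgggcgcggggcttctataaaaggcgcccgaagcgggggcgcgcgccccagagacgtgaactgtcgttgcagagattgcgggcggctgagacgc
E2F1, chr20:33686336-33686635, minus strand: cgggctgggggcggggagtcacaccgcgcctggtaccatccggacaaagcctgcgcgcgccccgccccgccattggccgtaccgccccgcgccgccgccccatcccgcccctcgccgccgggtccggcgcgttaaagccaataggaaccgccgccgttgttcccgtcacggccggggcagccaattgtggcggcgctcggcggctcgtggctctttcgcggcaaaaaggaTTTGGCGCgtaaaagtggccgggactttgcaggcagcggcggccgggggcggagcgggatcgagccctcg
E2F2, chr1:23531184-23531483, minus strand: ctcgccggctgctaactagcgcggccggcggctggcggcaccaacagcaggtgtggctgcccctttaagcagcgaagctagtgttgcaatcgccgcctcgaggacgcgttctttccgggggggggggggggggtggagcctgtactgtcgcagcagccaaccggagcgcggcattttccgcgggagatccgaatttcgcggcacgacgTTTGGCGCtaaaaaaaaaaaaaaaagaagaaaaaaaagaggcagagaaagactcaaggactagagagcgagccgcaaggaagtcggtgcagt
In TXNIP the capitals mark the carbohydrate response element that MondoA binds, a pair of CACGNG boxes with 5 bases of any kind between them, which 0.0732% of all 27305 promoters and 0.132% of the 13676 promoters of measured genes hold. In HERPUD1 they mark TGATGNAA, the element of ATF4 and C/EBP dimers, read here on the opposite strand, which 3.67% of all promoters and 2.22% of those of measured genes hold. It stood in 4 of the 22 ATF4 targets with a window, in 4 of 225 genes called lower and in 1 of 194 called higher. In E2F1 and E2F2 they mark TTTGGCGC, an E2F site, which 0.659% of all promoters and 0.929% of those of measured genes hold. It stood in 8 of the 42 DNA replication and G1/S genes with a window, in 5 of 194 genes called higher and in 1 of 225 called lower. These are matches of letters in a window, not measured sites.

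Cell cycle genes lay above 0, mostly by less than the fold limit. Of 49 measured DNA replication and G1/S genes 41 had a positive value. The calls were 3 higher, or 6.1%, and 0 lower, against 1.32% and 1.63% of all genes. With p alone 7 were higher and 2 lower, against 4.04% and 4.11% of all genes. The array medians were 0.04, -0.03, 0.12 and 0.45, so that replicate 4 set the list median of 0.13. RRM2, the small subunit of ribonucleotide reductase, had values of 0.51, 0.41, 0.32 and 0.96 and was called in both fits. E2F2 and E2F1, activators of S phase genes, had values of 0.62, 0.23, 0.40 and 1.58 for E2F2, and 0.31, 0.17, 0.17 and 0.92 for E2F1. The 10 spots of E2F1 lay between 0.29 and 0.39. E2F8, a repressor of the same family, averaged 0.81 with values of 0.93, 0.61, 0.14 and 1.56. CDT1, a licensing factor, and UHRF1 passed on p alone at 0.34 and 0.35, each with replicate 2 below 0.

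Of 48 mitosis genes 35 had a positive value and PLK4, the kinase of centriole duplication, was the only one called, at 0.30, 0.19, 0.26 and 0.94. CEP152, its centriolar partner, chosen after its values were seen, averaged 0.75 on its chosen spot, with 0.38, 0.48, 0.41 and 1.72 on the 4 arrays. Its 4 spots lay between 0.11 and 0.75, and their mean, 0.31, was under the fold limit. HUS1, of the checkpoint clamp, was called higher in both fits at 0.55. CCNG1, cyclin G1, was called higher in both fits at 0.45, 0.31, 0.34 and 0.55. Of 42 DNA repair genes 1 was called, MUTYH, at -0.39.

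Histone genes had the highest list median, 0.25, with 69 of 76 genes above 0, and yet none was called in either fit of limma, with 25 at an unadjusted p under 0.05 with and 16 without the dye coefficient. The array medians were 0.02, 0.009, 0.11 and 0.78, so that the list median was 0.06 without replicate 4. All 4 arrays were positive in 15 of the 76, or 19.7%, against 11.8% of all genes. On the 0 h arrays the medians were 0.06, 0.15, -0.006 and -0.01.

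**Figure D4:**
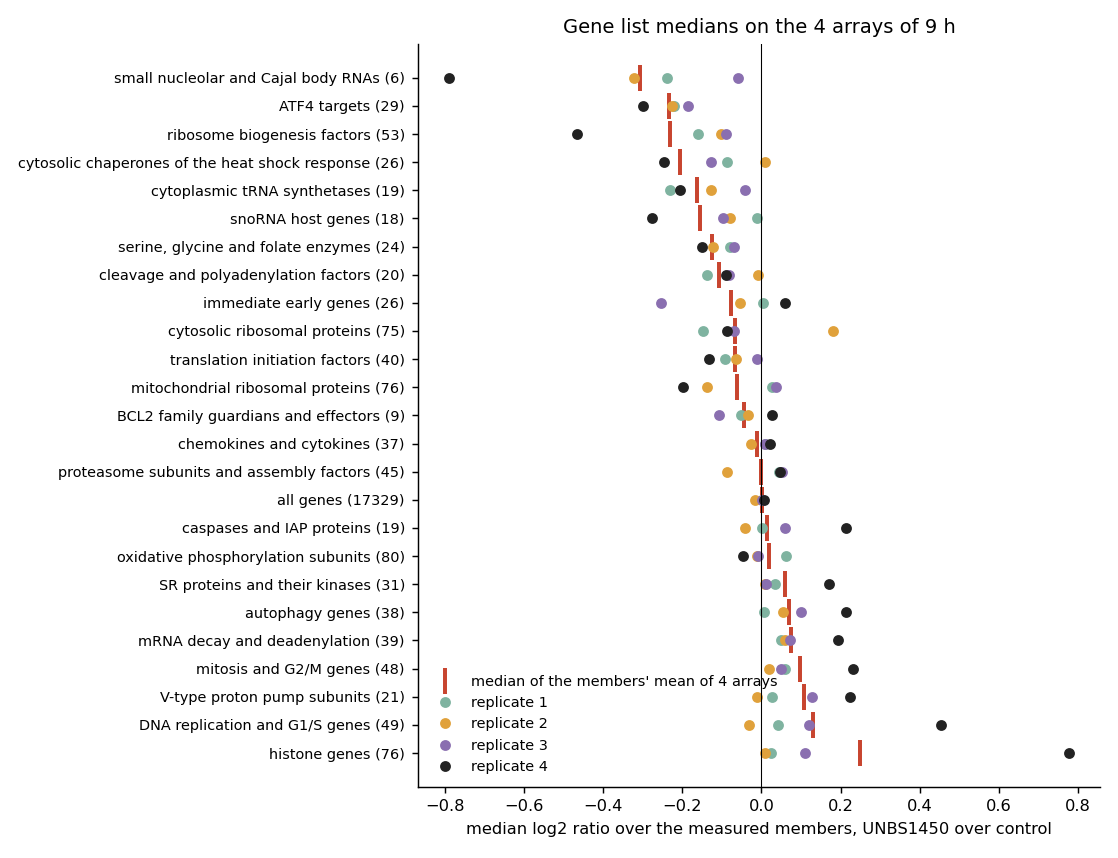
Points give the median log2 ratio of UNBS1450 over control over the measured members of each gene list on each of the 4 arrays of 9 h, and red bars the median of the members' means, with the number of members in brackets. The 4 points of the ATF4 targets lie between -0.18 and -0.30, whereas those of the histone genes spread from 0.009 to 0.78, with replicate 4 apart.

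CLK1 and CLK4 are kinases that phosphorylate SR proteins of splicing, and both were called higher in both fits, CLK1 at 0.76, 0.43, 0.34 and 1.45 and CLK4 at 0.72, 0.42, 0.52 and 1.04. LUC7L3, a splicing factor of the U1 particle, had values of 0.44, 0.46, 0.41 and 0.52 on its chosen spot, but 1 of its 3 spots averaged -0.48 and the mean of its spots was -0.10. TRA2A, which promotes exon inclusion, was called lower at -0.39. Of 31 SR proteins and kinases these 4 were called, or 12.9% against 2.95% of all genes. In the core spliceosome PRPF39 and PRPF38B were called higher at 0.50 and 0.41, and PRPF4 lower in both fits at -0.55, -0.35, -0.32 and -0.65. Of 27 hnRNP genes none was called in either fit of limma, and 9 had an unadjusted p under 0.05 with the dye coefficient. Of the genes just named PRPF38B and TRA2A also had a spot on the other side of 0, at -0.01 and 0.10.

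Genes of mRNA decay were called in both directions. CNOT8, a deadenylase of the CCR4-NOT complex, had values of 0.41, 0.27, 0.29 and 0.69. PAN3, of the second deadenylase, and DDX6, a helicase of P-bodies, averaged 0.40, with a second spot at -0.06, and 0.43, whereas DCP1B, a decapping cofactor, was lower at -0.13, -0.40, -0.60 and -2.21. Of the 39 genes of the list these 4 were called, or 10.3% against 2.95% of all genes. NCBP2, the cap-binding subunit, had values of 0.68, 0.47, 0.11 and 0.29, with the 2 arrays of each dye orientation together, and was called with the dye coefficient only (limma, adjusted p = 0.0124 with and 0.0945 without it). The second spot of NCBP2 averaged 0.06. For cleavage and polyadenylation RBBP6 was called lower in both fits at -0.77, CSTF3 lower at -0.85 and WDR33 higher at 0.83, and spots of the opposite sign were present for all 3, at 0.05, 0.24 and -0.45. NUP58, NUP160 and KPNA4, of the nuclear pore and import, were called higher at 0.95, 0.55 and 0.39. With spots averaged they stood at 0.34, 0.32 and 0.28, all under the fold limit. NUP58 and NUP160 read 1.99 and 1.25 on replicate 4, and 0.58 and 0.32 in the dye-balanced mean of replicates 1, 2 and 3. The other 38 genes of that list were not called and its median was -0.05.

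Transcription factors and regulators moved in both directions. ID2 and ID3, inhibitors of helix-loop-helix factors, were called lower with the dye coefficient, ID2 at -0.45, -0.25, -0.46 and -1.70 and ID3 at -0.38, -0.21, -0.29 and -1.48. TGFBR2, a receptor for TGF-beta, was higher at 0.30, 0.19, 0.28 and 1.298. In all 3 genes the first 3 arrays lay close together and replicate 4 far out. ID2, ID3, ATF3 and MYC were the 4 calls among 26 immediate early genes, all lower. They were 15.4% of the list, against 1.63% of all genes called lower, and the list median was -0.08. RFX1 was called higher in both fits, at 0.41, 0.67, 0.64 and 1.499, but its second spot averaged 0.05.

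Of 436 zinc finger genes named ZNF, 7 were called higher and 16 lower with the dye coefficient, and 1 higher and 10 lower without it. With the dye coefficient 5.3% of the list was called, against 2.95% of all genes. Of all genes 1.32% were called higher and 1.63% lower with the dye coefficient, and 0.375% each way without it. The list median was 0.006. ZNF25, ZNF554 and ZNF251 had the smallest p. ZNF25 read -0.24, -0.34, -0.77 and -1.28, with the orientation of treated RNA in Cy3 lower than the other. Among chromatin enzymes NSD2, KAT2B and KDM3A were called higher, at 0.49, 0.44 and 0.53. With spots averaged they stood at 0.24, 0.26 and 0.47, the first 2 under the fold limit. The 8 genes with the smallest p for a rise were HIPK3, RASSF3, TMEM79, PPP1R14C, BICD1, NCBP2, SMOX and RAB18. HIPK3, a nuclear kinase, had values of 0.57, 0.43, 0.39 and 0.26 (limma, adjusted p = 0.00985 with and 0.0375 without the dye coefficient). RASSF3 had values of 0.63, 0.35, 0.49 and 0.52, and in neither gene was replicate 4 the highest. Their second spots averaged 0.09 for HIPK3 and 0.01 for RASSF3, and with the spots averaged, at 0.25 and 0.255, neither gene was called. The mean of spots was also under the fold limit for BICD1, at 0.05, NCBP2, at 0.22, and RAB18, at 0.24. The lowest spot of BICD1 averaged -0.17. TMEM79, PPP1R14C and SMOX had 1 spot each.

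Further large changes called in both fits lay outside these groups. PURPL, a long non-coding RNA induced by p53, had values of -0.86, -1.82, -0.45 and -0.69, and here replicate 2 was the lowest. GCNA, a germ cell nuclear protein, averaged -0.93, and SSH3, a phosphatase of the slingshot family, averaged -0.92 with a second spot at -0.04. ARMC8, a subunit of a ubiquitin ligase, averaged 0.71, but the mean of its 4 spots was 0.11 and the lowest -0.41. The uncharacterised LOC105379499 averaged 0.82. NDRG1, which is induced by hypoxia and stress, was called lower in both fits at -0.43, -0.68, -0.17 and -0.43, with a second spot at -0.09.

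With the dye coefficient only, MED10, a Mediator subunit, was called higher at 0.40. HEXIM2, an inhibitor of the elongation kinase P-TEFb, was lower at -0.51, and BRCC3, a deubiquitinase, at -0.43. Of 239 long intergenic RNA genes 5 were called, or 2.09%, against 2.95% of all genes. All 5 were lower, and 1.63% of all genes were called lower. LINC02076 had values of -0.19, -0.37, -0.32 and -0.66, and LINC03014 of -0.15, -0.10, -0.58 and -1.09.

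SMOX, spermine oxidase, was called higher in both fits at 0.25, 0.35, 0.34 and 0.60. SAT1, which acetylates spermine and spermidine and was named after its values were seen, was called higher with the dye coefficient at 0.67, 0.31, 0.21 and 1.80, and its spots averaged 0.75 and 0.77.

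Genes of membrane traffic and autophagy were called in both directions. SNX5, a sorting nexin of endosomes, had values of 1.03, 0.61, 0.82 and 1.91, the largest rise called without the dye coefficient, although its other spot averaged -0.18. VPS26C, of the retriever complex, had values of 0.36, 0.23, 0.35 and 0.60. RAB18 and RAB8B, small GTPases of lipid droplets and of exocytosis, averaged 0.43 and 0.52 and were called in both fits, and RAB33A was lower at -0.56. The second spot of RAB18 averaged 0.05 and that of RAB8B 0.24. AP3D1, of the AP-3 adaptor complex, was the only call among 49 vesicle coat and ESCRT genes, lower at -0.73, -0.25, -0.77 and -0.28. VMP1 and MAP1LC3B, of autophagosome formation, averaged 0.39 and 0.43, and ATG12 passed on p alone at 0.36. Of 38 autophagy genes 3 were called, all higher, or 7.9% against 2.95% of all genes. With p alone 7 were higher and 0 lower, and the array medians were 0.006, 0.05, 0.10 and 0.21. Of 21 V-type proton pump subunits and 35 lysosomal genes none was called in either fit of limma, and 8 and 10 had an unadjusted p under 0.05 with the dye coefficient. Of the 2 spots of VMP1 the other averaged -0.07.

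The sodium pump itself is the target of the compound. ATP1B1, its beta 1 subunit, had values of 0.31, 0.23, 0.24 and 0.94 (limma, adjusted p = 0.0183 with and 0.0516 without the dye coefficient). The 4 arrays were all above 0, but the 3 spots of the gene ranged from -0.39 to 0.47 and their mean was 0.17. ATP1B3, the beta 3 subunit, had values of 0.39, 0.19, -0.10 and -0.08, with the sign following the dye (limma, adjusted p = 0.386). Of 19 pump genes ATP1B1 was the only one called, and of 19 sodium, potassium and chloride cotransporters and exchangers none was called in either fit of limma, with 4 at an unadjusted p under 0.05. Outside these lists, and named after their values were seen, SLC20A1, a sodium-phosphate cotransporter, was called higher in both fits at 0.54, 0.22, 0.61 and 0.73. SGK1, a kinase that raises sodium transport, was higher at 0.50, 0.27, 0.44 and 1.90, and LRRC8A, a subunit of the volume-regulated anion channel, averaged 0.43. Of 74 potassium channel genes KCNG1 was called lower at -0.38, and of 53 calcium and TRP channel genes CACNA2D4, a calcium channel subunit, was called lower in both fits at -0.52, -0.44, -0.52 and -1.16.

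Zinc and iron carriers gave both directions. SLC30A1, the zinc exporter, was called higher at 0.50, 0.15, 0.38 and 1.79. TFRC, the transferrin receptor, was called lower in both fits at -0.58, -0.47, -0.28 and -0.70, and its 10 spots lay between -0.51 and -0.46. CPT2, of fatty acid oxidation, was called lower in both fits at -0.67.

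Immune genes were called in both directions. TLR2, the receptor for bacterial lipoproteins, had values of 0.48, 0.40, 0.53 and 0.54, with 10 spots between 0.45 and 0.53, and was called higher in both fits. TICAM1, an adaptor of TLR3 and TLR4, was called lower at -0.17, -0.16, -0.35 and -1.42, but its second spot averaged 0.02. CCL2, a monocyte chemokine, had values of -0.56, -0.43, -0.25 and -1.25, and IL1B of -0.17, -0.26, -0.32 and -1.25. Both were lower on all arrays and were called with the dye coefficient only, and they were the 2 calls among 37 chemokines and cytokines. RELB, of the non-canonical NF-kB pathway, was higher at 0.45, 0.29, 0.33 and 1.83. TNFRSF1A, the TNF receptor, was lower at -0.41.

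Among lineage genes CEBPA and CEBPB, the myeloid transcription factors, were called lower at -0.45 and -0.40. ADGRE5, the surface protein CD97, was higher at 0.10, 0.13, 0.70 and 1.75, with a dye coefficient of -0.39. THBD, thrombomodulin, chosen after its values were seen, was called lower at -0.53, -0.42, -0.77 and -2.87. Its mean of -1.15 compares with -0.62 in the dye-balanced mean of the other 3 arrays. Of 36 interferon stimulated genes and 19 granule protein genes none was called in either fit of limma, and 12 and 0 had an unadjusted p under 0.05 with the dye coefficient.

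The BCL2 family, on which the study centres, had no called member in either fit of limma. An unadjusted p under 0.05 with the dye coefficient was found for 3 of its 9 guardians and effectors and 8 of its 14 BH3-only genes. Over all 17329 genes 5019 had such a p. MCL1 had values of -0.16, -0.03, -0.11 and 0.03, with a mean of -0.07 and a standard error of 0.06 (limma, adjusted p = 0.526). Its sign changed between arrays and between its 3 spots, which ranged from -0.07 to 0.13. BCL2 had values of -0.18, -0.09, -0.06 and -0.20, on the same side of 0 on every array but under the fold limit (limma, adjusted p = 0.273). BCL2L1, which encodes BCL-xL, read 0.72 on replicate 1 and -0.13, -0.10 and -0.10 on the others (limma, adjusted p = 0.762). PMAIP1, the BH3-only protein NOXA, had values of 0.14, 0.09, -0.10 and 0.67 (limma, adjusted p = 0.342). With p alone BCL2L2 passed at 0.32, and BCL2A1 and BCL2L13 at -0.26 and -0.35. Of 19 caspases and IAP proteins, 45 proteasome genes, 80 oxidative phosphorylation genes and 27 glycolysis genes none was called in either fit of limma, and 6, 5, 12 and 8 had an unadjusted p under 0.05 with the dye coefficient.

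**Figure D5:**
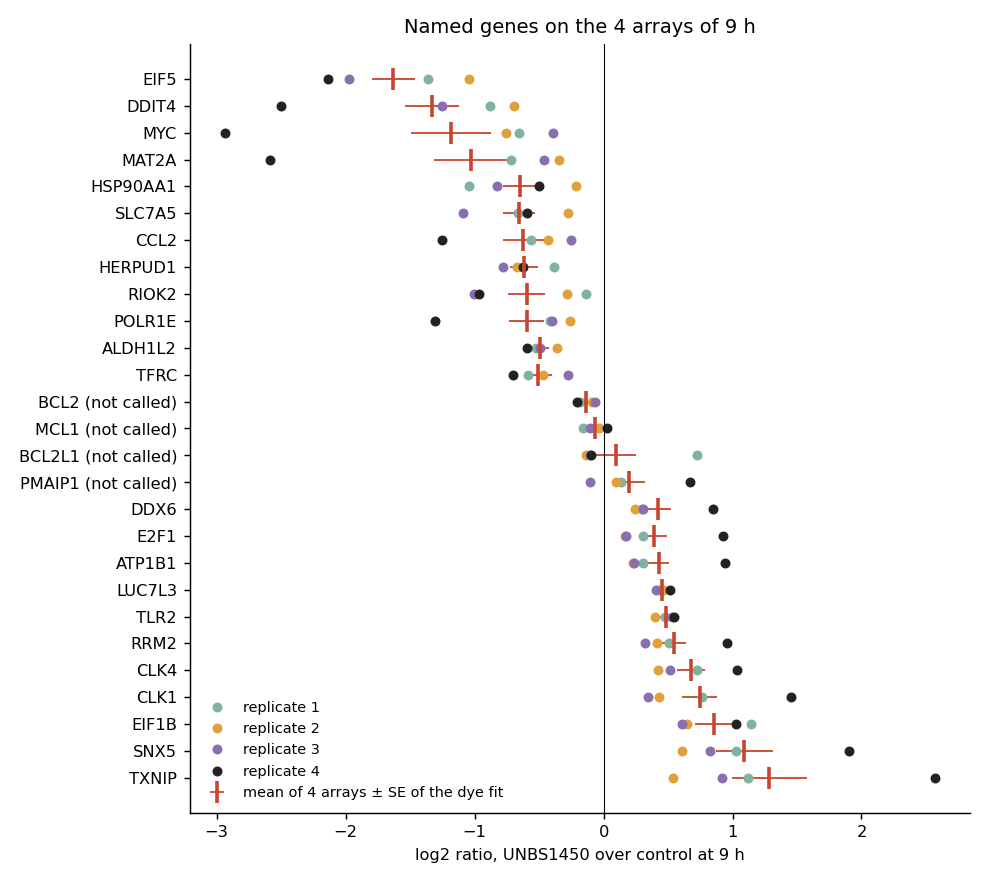
Points give the log2 ratio of UNBS1450 over control on each of the 4 arrays of 9 h for 27 named genes, and red bars their mean with the standard error of the fit with the dye coefficient. EIF5 is below -1 on all 4 arrays and MCL1 and BCL2 lie near 0, while MYC and MAT2A have replicate 4 far below the other arrays.

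The 9 h values were also set against those of the 0 h arrays. Over the genes called higher at 9 h the median ratio was 0.06 on the 0 h arrays, -0.006 on those of 3 h, 0.27 on those of 6 h and 0.48 on those of 9 h. Over the genes called lower the medians in the same order of time were 0.02, -0.08, -0.22 and -0.50. No gene passed the adjusted p with the dye coefficient at 3 h or 6 h. In the contrast of 9 h minus 0 h, in which the spread of the 0 h arrays adds to the error, 2 genes were called with the dye coefficient and 0 without it. These were EIF5 at -1.74 and LYRM9 at -0.56 (limma, adjusted p = 0.0341 for both).

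Among the 511 called genes 308 had several spots, and in 71 of these at least 1 spot averaged on the other side of 0. When the spots of each gene were averaged, 325 genes were called with the dye coefficient, 295 of them among the 511.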

How the data were processed

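RNA of UNBS1450-treated and control U937 cells was hybridised to 16 two-colour Agilent arrays, 4 per time point. The authors corrected the GenePix signals by normexp, normalised them by loess within and Aquantile between arrays with limma, and deposited a log2 ratio of Cy5 over Cy3 for each spot. Spot intensities and weights were not used here, so background and saturation of single spots could not be judged, and the number of arrays limits the precision. The sign of each ratio was set by the labelled dyes so that treated RNA stands over control. Of 45220 spots 40563 had values, 28970 of them with 1 gene symbol, 86 with several and 11507 with none listed. No sample column was left unmapped.

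Each spot was fitted in limma 3.58.1 (R 4.3.3) over all 16 arrays with 1 coefficient per time point, without and with a coefficient per gene for the dye. A gene with several spots was represented by its spot with the highest F-statistic, chosen on these same arrays, which favours large values. Whether this choice favours 9 h values over those of 0 h was not tested. The p-values were adjusted by Benjamini-Hochberg over all 28970 spots with 1 gene, and the spot of each gene was taken from these. The statistic was tested on simulated data that gave each spot the same spread on all 16 arrays. The wider spread of replicate 4 of 9 h was not simulated. The p-values measure the spread between arrays, since the labels do not tie the arrays to cultures. Genes were named by a rule: genes of the study question, up to 3 called members of each list with 4 arrays in one direction, the 8 smallest p in each direction, and the 6 largest changes each way called without the dye coefficient. Those named after their values were seen are UTP14A, POLR1G, TRA2A, DCP1B, TRIB3, HUS1, ZFAND2A and those so described. Members and lists were chosen with earlier results of these data known. One item of the naming rule is not reported here. Alternatives were other dye terms, 9 h arrays only, the 9 h minus 0 h contrast, replicate blocks, robust regression, array weights, spot averaging, centring, no fold limit, adjustment over all spots and leaving out single arrays. Summaries used Python 3.11.15 with pandas 2.3.3 and numpy 2.4.6, and plots matplotlib 3.10.9.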

Additional observations from a re-analysis of the deposited data

Results flagged for a closer look

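Single arrays stood far from the other 3 of 9 h in 26 of 142 genes tested, by a gap test that flags about 1 in 20 groups by chance. In 24 of the 26 the far array was replicate 4. Among the lower genes it read -2.93 for MYC, -2.87 for THBD, -2.59 for MAT2A, -2.39 for CSTF3, -1.70 for ID2, -1.69 for PAK1IP1, -1.48 for ID3, -1.42 for TICAM1, -1.31 for POLR1E, -1.3 for SNORD22, -1.25 for IL1B and -1.16 for CACNA2D4. It also read -0.88 for LINC00205, a long non-coding RNA, and -0.85 for KCNG1. Among the higher genes it read 2.09 for WDR33, 1.90 for SGK1, 1.83 for RELB, 1.72 for CEP152, 1.298 for TGFBR2, 0.95 for DUSP10, a MAP kinase phosphatase, 0.94 for ATP1B1, 0.94 for PLK4, 0.85 for DDX6 and 0.85 for MAP1LC3B. The sign on replicate 4 was that of the other arrays in each of these 24 genes. Most of them were named on condition that all 4 arrays had one direction. Replicate 1 was the far array for BCL2L1, at 0.72 against -0.13 to -0.10 on the others, and for ERAP2, an aminopeptidase of antigen presentation, at 1.05 against 0.35 to 0.43.

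Of 81 list medians 7 had a far array. On replicate 4 the median was 0.78 for histone genes, 0.19 for mRNA decay, 0.17 for SR proteins and their kinases and 0.17 for fatty acid enzymes. It was 0.0817 on replicate 1 for hnRNP proteins, 0.0482 on replicate 3 for erythroid markers and -0.088 on replicate 2 for proteasome genes. The part of array quality in these values was not tested.

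EIF5 and LYRM9 differed between 9 h and 0 h by the test of the contrast itself, at -1.74 and -0.56 (limma with the dye coefficient, adjusted p = 0.0341 for both). Among 11593 spots with no single gene, which entered no comparison above, 121 (1.04%) were called at 9 h with the dye coefficient, 39 higher and 82 lower, and 0 at 0 h. Of the 28970 spots with 1 gene 2.04% were called at 9 h.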

How the results depend on the processing

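Without the dye coefficient 130 genes were called. The count was 511 with a dye coefficient, 0 from the 9 h arrays alone, 0 for 9 h minus 0 h and 313 with robust regression. It was 0 with array weights, 213 with no fold limit and 65 adjusted over all 40563 spots with values. It was 0 to 437 when 1 array of 9 h was left out. With the dye coefficient 511 genes were called. The count was 130 with no dye coefficient, 0 from the 9 h arrays alone, 2 for 9 h minus 0 h, 200 with array weights, 325 with the mean of spots, 1412 with no fold limit, and 3 to 878 when 1 array was left out. Of 123 named genes called with the dye coefficient, 6 kept their call without replicate 4 and 3 without replicate 1, and 0 reversed under any of the omissions. Spot averaging gave BCL2L1 -0.0537, LUC7L3 -0.10 and MCL1 0.0568, and 9 h minus 0 h gave MCL1 0.0483, each the other sign, and with 1 array left out BCL2L1 ran between -0.0763, without replicate 1, and 0.235 with the dye coefficient, and between -0.113 and 0.172 without it. A representative spot chosen in the fit with the dye coefficient, an alternative added after seeing the data, gave 520 calls. The cause of these differences was not tested.

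Same-numbered arrays of 9 h and the other times correlated from -0.320 to 0.487 over 12 pairs, so the numbers were not taken as a pairing, although with 6 h all 4 values, 0.134 to 0.487, were over 0.1. With the number as a random block 129 genes were called without and 519 with the dye coefficient, and with a fixed replicate block, which holds the dye contrast, 676.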
